A study of Homo sapiens with 16 samples.

Results

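The genes described are MYC, its binding partner MAX and the factors that build ribosomes in the nucleolus. They were chosen by name as a list of 42 symbols, with earlier results of these data known, and grouped here by the step they serve. Their counts beside the shares of all genes are therefore a description and no independent test. All 42 were found among the 23368 entries of the deposited table. All 42 also passed the filter on low values, a log2 value of at least 3.33 in at least 2 of 16 libraries, which left 13564 genes to test. The members reached the filter in all 16 libraries, with values between 4.93 (PPAN) and 15.96 (NPM1).

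MYC is a transcription factor that binds DNA as a dimer with MAX, most often at the E-box CACGTG, and many of its best known targets encode ribosome assembly factors. Ribosome production begins in the nucleolus, where RNA polymerase I transcribes the precursor of ribosomal RNA. Small nucleolar ribonucleoproteins then modify and cut that precursor, and separate sets of assembly factors fold it into the small and the large subunit. In epithelial cells TGF-β1 is known to slow growth and to lower MYC transcription.

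RNA was sequenced from MCF10A cells, an immortalized line of human breast epithelium that does not form tumours. The PHF8 stock overexpressed PHF8, a histone lysine demethylase that has been described at ribosomal RNA genes, and the Mock stock carried the empty vector. Both were grown without TGF-β1 or with 5 ng/ml of it for 24, 48 or 72 h, in medium that held EGF, insulin, hydrocortisone, cholera toxin and horse serum. The 8 groups had 2 libraries each, and the labels assign replicate 1 to the first sequencing round and replicate 2 to the second. Separate cultures are not stated for the replicates; p-values therefore reflect how far these libraries spread, which may be technical. With 1 stock of each kind, the level of PHF8 and whatever else distinguishes the stocks cannot be told apart.

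The PHF8 gene had values between 13.64 and 14.73 on the log2 scale in the 8 libraries of the PHF8 stock and between 9.26 and 9.72 in those of the Mock stock. Libraries of 1 group correlated across genes with a Pearson r of 0.9821 to 0.9924. Linear values summed to 19.8 to 21.2 M in treated libraries and 18.8 to 19.1 M in untreated ones. All 8 basal mammary markers passed the filter, with a log2 sum of 17.31 to 18.25 in treated and 17.02 to 17.33 in untreated libraries. Of 7 luminal markers 5 passed, with a log2 sum of 13.36 to 13.72 in treated and 13.09 to 13.59 in untreated libraries, and PGR was listed at 0. Of 6 fibroblast markers only DCN and FAP passed, with a log2 sum of 12.17 to 13.5 in treated and 9.56 to 12.58 in untreated libraries, while PDGFRA, PDGFRB, LUM and THY1 did not. Of 6 blood and endothelial markers only PECAM1 and CD14 passed, with 6.1 to 8.04 in treated and 8.49 to 9.68 in untreated libraries, and CD3E and HBB were listed at 0. The part of these markers in the results on the members was not tested. In RNA from whole cultures, fewer cells of a type and less RNA per cell cannot be told apart, and values relative to each library do not measure RNA per cell.

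Promoter windows, 250 bases before to 50 after a start site, were read from RefSeq (GRCh38.p14) for 33 of the 42 members. The E-box CACGTG, which reads the same on both strands, was present in 14 of the 33 genes (42.4%), against 12.4% of the 9362 tested genes and 8.77% of all 27305 genes with a window. By window, 15 of 42 member windows (35.7%) held it, against 9.0% of windows of tested genes and 7.26% of all 35116. The median number of CpG per window was 23.5 in members, 25 in tested genes and 14 over all genes. The share was 15.8% among tested genes called lower at 24 h of TGF-β1 and 9.89% among those called higher. A match of letters is a description and no evidence of binding. The windows of the 4 members below are shown because they hold the motif and belong to genes whose response to TGF-β1 is followed by role in every library; LYAR, FBL and GNL3 fell after TGF-β1 and NOP10 was not called. UTP20, which is followed for its difference between stocks, also holds the motif, at -10, and its window is not shown. Capitals mark the E-box, and sequences run 5′ to 3′ on the gene's strand.
LYAR, chr4:4289972-4290271, minus strand, motif at -64 from the start: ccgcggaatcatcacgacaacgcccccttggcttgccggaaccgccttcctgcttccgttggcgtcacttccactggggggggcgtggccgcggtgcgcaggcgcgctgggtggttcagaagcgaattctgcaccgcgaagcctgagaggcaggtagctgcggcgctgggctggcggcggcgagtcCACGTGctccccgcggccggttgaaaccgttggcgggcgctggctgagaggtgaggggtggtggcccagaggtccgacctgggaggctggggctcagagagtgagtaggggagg
FBL, chr19:39846330-39846629, minus strand, motif at 7: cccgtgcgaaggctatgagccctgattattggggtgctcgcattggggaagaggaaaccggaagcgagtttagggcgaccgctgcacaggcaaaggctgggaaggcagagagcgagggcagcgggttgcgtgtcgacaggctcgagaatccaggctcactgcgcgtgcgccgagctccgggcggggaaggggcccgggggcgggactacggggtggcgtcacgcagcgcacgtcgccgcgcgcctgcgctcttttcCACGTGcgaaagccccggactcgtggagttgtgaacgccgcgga
GNL3, chr3:52685782-52686081, plus strand, motif at 7: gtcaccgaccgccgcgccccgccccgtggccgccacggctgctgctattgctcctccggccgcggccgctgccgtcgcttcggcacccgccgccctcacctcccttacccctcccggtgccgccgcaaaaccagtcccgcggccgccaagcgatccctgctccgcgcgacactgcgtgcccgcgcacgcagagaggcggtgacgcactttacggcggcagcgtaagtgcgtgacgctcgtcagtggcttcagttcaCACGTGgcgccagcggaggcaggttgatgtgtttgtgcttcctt
NOP10, chr15:34343087-34343386, minus strand, motifs at -170 and -11: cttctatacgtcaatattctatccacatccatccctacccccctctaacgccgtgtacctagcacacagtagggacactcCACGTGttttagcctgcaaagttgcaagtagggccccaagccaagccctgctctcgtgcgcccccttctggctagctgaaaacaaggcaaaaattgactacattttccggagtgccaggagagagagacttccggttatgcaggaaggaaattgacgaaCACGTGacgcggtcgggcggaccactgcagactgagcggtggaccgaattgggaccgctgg

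The first comparison asked what 24, 48 and 72 h of TGF-β1 did to the members, as the mean of both stocks. At 24 h 36 of 42 members fell and 0 rose, where 16.3% of all 13564 genes were called lower and 17.1% higher (limma, Benjamini-Hochberg adjusted p under 0.05 over all tested genes). At 48 h 29 members fell (15% of all genes lower, 16.3% higher) and at 72 h 21 fell (13% lower, 14.3% higher), again with no member higher. The 6 not called at 24 h were MAX, GAR1, NOP10, RRP12, BOP1 and PPAN. The median member differed from untreated by -0.741 log2 units at 24 h, -0.592 at 48 h and -0.485 at 72 h. The medians over all genes were -0.00781, 0.00341 and 0.00258. All 42 members had a negative difference at each time, from -1.4 to -0.10 at 24 h and from -1.19 to -0.12 at 72 h. The 3 times share their untreated libraries and so are not independent of each other.

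The decrease was present in both rounds, at different sizes. The median over members at 24 h was -0.577 in round 1 and -0.943 in round 2, at 48 h -0.384 and -0.789, and at 72 h -0.449 and -0.55. All 42 members were lower in both rounds at 24 and 72 h, and 41 at 48 h. With the round as a block, 39, 37 and 35 members fell at 24, 48 and 72 h (25%, 23.9% and 21.9% of all genes). The 4 treated libraries all lay below the 4 untreated ones for 32 members at 24 h, 23 at 48 h and 24 at 72 h, where this held for 15.2%, 15.4% and 14.7% of all genes. Of the members called, 27 of 36 kept their call at 24 h in each of 16 fits that left out 1 library, 21 of 29 at 48 h and 14 of 21 at 72 h.

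**Figure D1:**
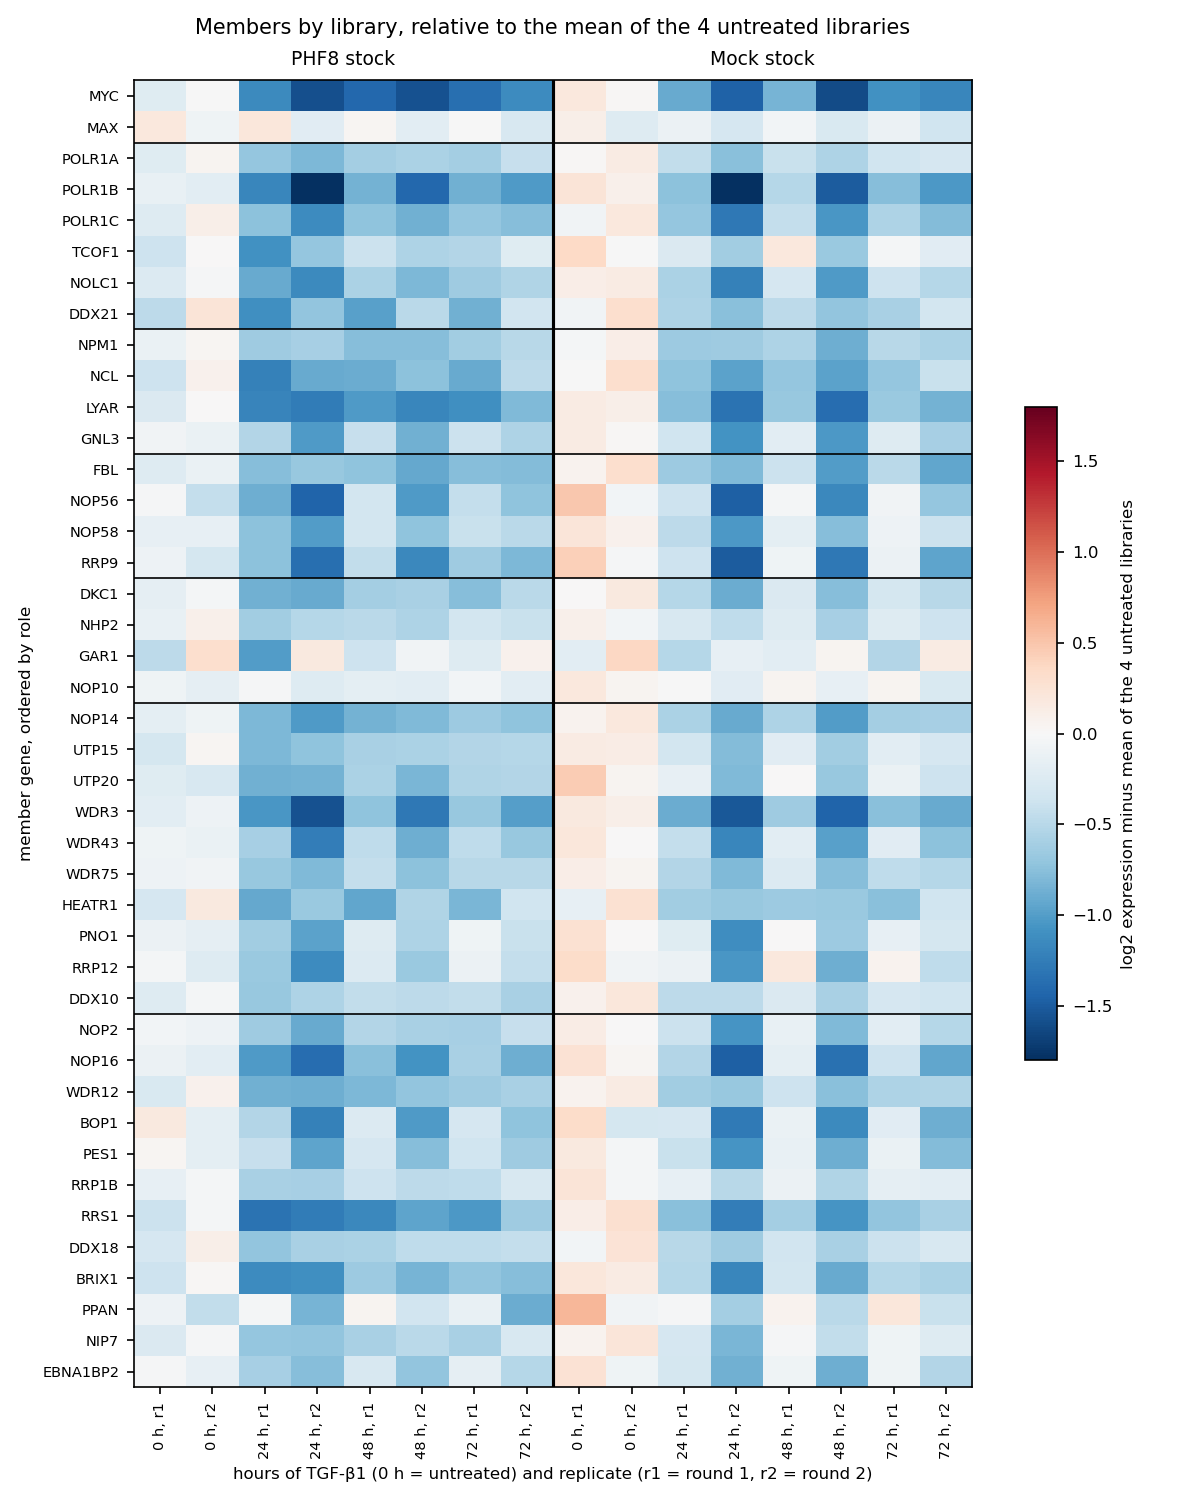
Log2 expression of the 42 members (rows, ordered by role) in each of the 16 libraries (columns, by stock, hours of TGF-β1 and replicate), as the difference from the mean of the 4 untreated libraries. Nearly every treated column is blue, with the deepest values in MYC, POLR1B and WDR3 and the palest in MAX and NOP10.

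Read library by library, the same shift was seen as a median deviation of the members from the mean of the 4 untreated libraries. In the PHF8 stock this median was -0.166 and -0.055 in the untreated libraries of rounds 1 and 2, -0.741 and -0.902 at 24 h, -0.57 and -0.732 at 48 h, and -0.559 and -0.518 at 72 h. In the Mock stock it was 0.144 and 0.083 untreated, -0.474 and -0.895 at 24 h, -0.217 and -0.832 at 48 h, and -0.312 and -0.507 at 72 h. The treated library nearest to the untreated mean was Mock at 48 h of round 1, in which 36 of 42 members were below the untreated mean. The median deviation of all genes stayed between -0.0105 and 0.0095 in every library.

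MYC had the largest or second-largest difference of all members at each time. MYC in the PHF8 stock had log2 levels of 12.85 and 13.06 untreated, 11.91 and 11.49 at 24 h, 11.65 and 11.50 at 48 h, and 11.71 and 11.93 at 72 h. MYC in the Mock stock had 13.26 and 13.08 untreated, 12.16 and 11.61 at 24 h, 12.23 and 11.46 at 48 h, and 11.97 and 11.89 at 72 h. No treated library reached the lowest untreated one, 12.85. Over both stocks MYC fell by 1.27 ± 0.174 at 24 h (SE of the model, limma adjusted p = 0.00034), which is 2.42-fold lower. It fell by 1.35 ± 0.174 at 48 h (adjusted p = 0.000209) and by 1.19 ± 0.174 at 72 h (adjusted p = 0.000558), 2.56-fold and 2.29-fold lower. These 3 calls held in each fit without 1 library. At 24 h the difference of MYC ranked 191 from the lowest of 13564 genes.

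MAX, the obligate partner of MYC, was not called at any time without the block. MAX in the PHF8 stock was 10.11 and 9.85 untreated, 10.12 and 9.72 at 24 h, 9.96 and 9.73 at 48 h, and 9.92 and 9.64 at 72 h. MAX in the Mock stock was 10.03 and 9.69 untreated, 9.81 and 9.62 at 24 h, 9.88 and 9.65 at 48 h, and 9.81 and 9.57 at 72 h. Treated and untreated libraries overlapped at every time, and replicate 1 was above replicate 2 in each of the 8 groups. The difference over both stocks was -0.10 ± 0.132 at 24 h (limma adjusted p = 0.589) and -0.19 ± 0.132 at 72 h (adjusted p = 0.332). With the round as a block MAX was called lower at 72 h (adjusted p = 0.0178) and not at 24 h (0.148).

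All 6 RNA polymerase I genes and cofactors fell at 24 h, 5 at 48 h and 4 at 72 h (16.3%, 15% and 13% of all genes). Their medians were -0.867, -0.671 and -0.524. POLR1B, the second-largest subunit of the enzyme, had the lowest difference of all members at 24 h. POLR1B in the PHF8 stock was 11.05 and 10.99 untreated, 10.01 and 9.32 at 24 h, 10.34 and 9.78 at 48 h, and 10.31 and 10.16 at 72 h. POLR1B in the Mock stock was 11.41 and 11.27 untreated, 10.44 and 9.37 at 24 h, 10.66 and 9.69 at 48 h, and 10.41 and 10.14 at 72 h. Every treated value was below every untreated one. Round 2 was lower than round 1 in every group, treated and untreated, and by more at 24 and 48 h. POLR1B fell by 1.4 ± 0.265 at 24 h, 2.64-fold (limma adjusted p = 0.00245), and by 0.92 ± 0.265 at 72 h, 1.90-fold (adjusted p = 0.0237). The call at 72 h was lost, with adjusted p of 0.0557 to 0.0781, without either untreated replicate of PHF8 or of Mock, or without replicate 2 of either stock at 72 h.

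TCOF1, the nucleolar protein treacle that brings RNA polymerase I to its genes, had the smallest difference of these 6 at 72 h. TCOF1 in the PHF8 stock was 11.89 and 12.27 untreated, 11.16 and 11.56 at 24 h, 11.87 and 11.70 at 48 h, and 11.73 and 12.03 at 72 h. TCOF1 in the Mock stock was 12.62 and 12.26 untreated, 12.00 and 11.63 at 24 h, 12.45 and 11.59 at 48 h, and 12.23 and 12.05 at 72 h. The groups overlapped at each time. TCOF1 fell by 0.67 ± 0.187 at 24 h (limma adjusted p = 0.0184), and this call was lost without Mock untreated replicate 1 (0.0664), PHF8 24 h replicate 1 (0.0624), Mock 24 h replicate 2 (0.071) or PHF8 untreated replicate 2 (0.0709). At 72 h its difference was -0.25 ± 0.187 (adjusted p = 0.37). Of the other 4, POLR1A, the largest subunit, fell at 24 h by 0.67, POLR1C, shared with RNA polymerase III, by 0.96, NOLC1, a nucleolar phosphoprotein that escorts small nucleolar ribonucleoproteins, by 0.96, and the RNA helicase DDX21 by 0.78.

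The 4 members grouped as nucleolar proteins fell at 24 and 48 h, and 3 of them at 72 h (16.3%, 15% and 13% of all genes). Their median was -0.848 at 24 h and -0.584 at 72 h. LYAR, a nucleolar zinc finger protein linked to cell growth, was the most lowered. LYAR in the PHF8 stock was 10.42 and 10.69 untreated, 9.50 and 9.42 at 24 h, 9.66 and 9.51 at 48 h, and 9.58 and 9.89 at 72 h. LYAR in the Mock stock was 10.83 and 10.80 untreated, 9.92 and 9.36 at 24 h, 10.01 and 9.32 at 48 h, and 10.01 and 9.84 at 72 h. The highest treated value, 10.01, lay below the lowest untreated one, 10.42. LYAR fell by 1.14 ± 0.162 at 24 h (limma adjusted p = 0.000451), and by 0.86 ± 0.162 at 72 h (adjusted p = 0.00268). NPM1, nucleophosmin, the most highly expressed member, fell by 0.63 ± 0.0877 at 24 h and by 0.55 ± 0.0877 at 72 h (adjusted p = 0.000372 and 0.000985). NPM1 has processed pseudogenes, so how its reads were divided is uncertain. NCL, nucleolin, fell by 0.95 at 24 h and by 0.62 at 72 h.

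GNL3, the GTPase nucleostemin, was the member of this class with the smallest difference at 72 h. GNL3 in the PHF8 stock was 12.02 and 11.96 untreated, 11.55 and 11.07 at 24 h, 11.67 and 11.21 at 48 h, and 11.69 and 11.52 at 72 h. GNL3 in the Mock stock was 12.23 and 12.11 untreated, 11.73 and 11.00 at 24 h, 11.89 and 11.04 at 48 h, and 11.84 and 11.49 at 72 h. All treated values lay below all untreated ones, and replicate 2 was below replicate 1 in each of the 8 groups. GNL3 fell by 0.74 ± 0.21 at 24 h (limma adjusted p = 0.0194), a call lost without Mock untreated replicate 1 (0.0553), Mock 24 h replicate 2 (0.0791) or PHF8 24 h replicate 2 (0.0672). At 72 h the difference was -0.44 (adjusted p = 0.144), and it was called with the round as a block (0.0108).

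The 4 genes of the box C/D small nucleolar ribonucleoprotein, which guides methylation of ribosomal RNA, and of its U3 form all fell at 24 h (median -0.903). At 48 h 2 fell and at 72 h 1 fell, FBL. Of all genes 16.3%, 15% and 13% were called lower at 24, 48 and 72 h. With the round as a block all 4 were called at 48 and 72 h (23.9% and 21.9% of all genes). FBL, fibrillarin, is the methyltransferase of the complex. FBL in the PHF8 stock was 10.66 and 10.77 untreated, 10.12 and 10.21 at 24 h, 10.17 and 9.97 at 48 h, and 10.13 and 10.11 at 72 h. FBL in the Mock stock was 10.95 and 11.19 untreated, 10.24 and 10.10 at 24 h, 10.51 and 9.89 at 48 h, and 10.40 and 9.96 at 72 h. Treated and untreated values did not overlap. FBL fell by 0.73 ± 0.138 at 24 h, 1.65-fold (limma adjusted p = 0.00251), and by 0.74 ± 0.138 at 72 h, 1.67-fold (adjusted p = 0.00242).

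NOP58, which forms the core of that complex with NOP56, was no longer called at 72 h. NOP58 in the PHF8 stock was 10.98 and 10.98 untreated, 10.39 and 10.12 at 24 h, 10.80 and 10.40 at 48 h, and 10.73 and 10.64 at 72 h. NOP58 in the Mock stock was 11.35 and 11.21 untreated, 10.65 and 10.09 at 24 h, 10.95 and 10.36 at 48 h, and 11.03 and 10.75 at 72 h. The groups were apart at 24 and 48 h and overlapped at 72 h, when 1 Mock library reached 11.03. NOP58 fell by 0.82 ± 0.159 at 24 h (limma adjusted p = 0.00285) and differed by -0.34 ± 0.159 at 72 h (adjusted p = 0.138, and 0.0128 with the round as a block). NOP56 and RRP9, a protein of the U3 particle, fell by 1.04 ± 0.311 and 0.99 ± 0.328 at 24 h (adjusted p = 0.0246 and 0.0378).

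The box H/ACA particle, which turns uridines of ribosomal RNA into pseudouridine, was split by the threshold. DKC1 and NHP2 fell at all 3 times, and GAR1 and NOP10 were called at none of them, with or without the block. Without the block 16.3%, 15% and 13% of all genes were called lower at 24, 48 and 72 h. DKC1, dyskerin, is the pseudouridine synthase. DKC1 in the PHF8 stock was 10.75 and 10.88 untreated, 10.04 and 10.00 at 24 h, 10.29 and 10.33 at 48 h, and 10.15 and 10.42 at 72 h. DKC1 in the Mock stock was 10.92 and 11.08 untreated, 10.40 and 10.02 at 24 h, 10.64 and 10.14 at 48 h, and 10.59 and 10.41 at 72 h. No treated library reached 10.75. DKC1 fell by 0.79 ± 0.123 at 24 h, 1.73-fold (limma adjusted p = 0.000769), and by 0.52 ± 0.123 at 72 h (adjusted p = 0.00979).

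NOP10 is a small protein that binds the synthase. NOP10 in the PHF8 stock was 10.78 and 10.69 untreated, 10.84 and 10.61 at 24 h, 10.67 and 10.66 at 48 h, and 10.80 and 10.66 at 72 h. NOP10 in the Mock stock was 11.03 and 10.90 untreated, 10.84 and 10.65 at 24 h, 10.89 and 10.70 at 48 h, and 10.90 and 10.58 at 72 h. All 16 values lay within 10.58 to 11.03, and the groups overlapped. Its difference over both stocks was -0.12 ± 0.0948 at 24 h and -0.12 ± 0.0948 at 72 h (limma adjusted p = 0.381 and 0.41). GAR1 averaged 6.75 at 24 h and 6.99 at 72 h, against 7.12 untreated, and its 16 libraries ranged from 6.11 to 7.49 with overlap at each time (SE 0.281). At 24 h GAR1 differed by -0.37 and NHP2, which was called, by -0.47. At 72 h the differences were -0.13 for GAR1 and -0.33 for NHP2. With this SE a fall of GAR1 was neither shown nor excluded.

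**Figure D2:**
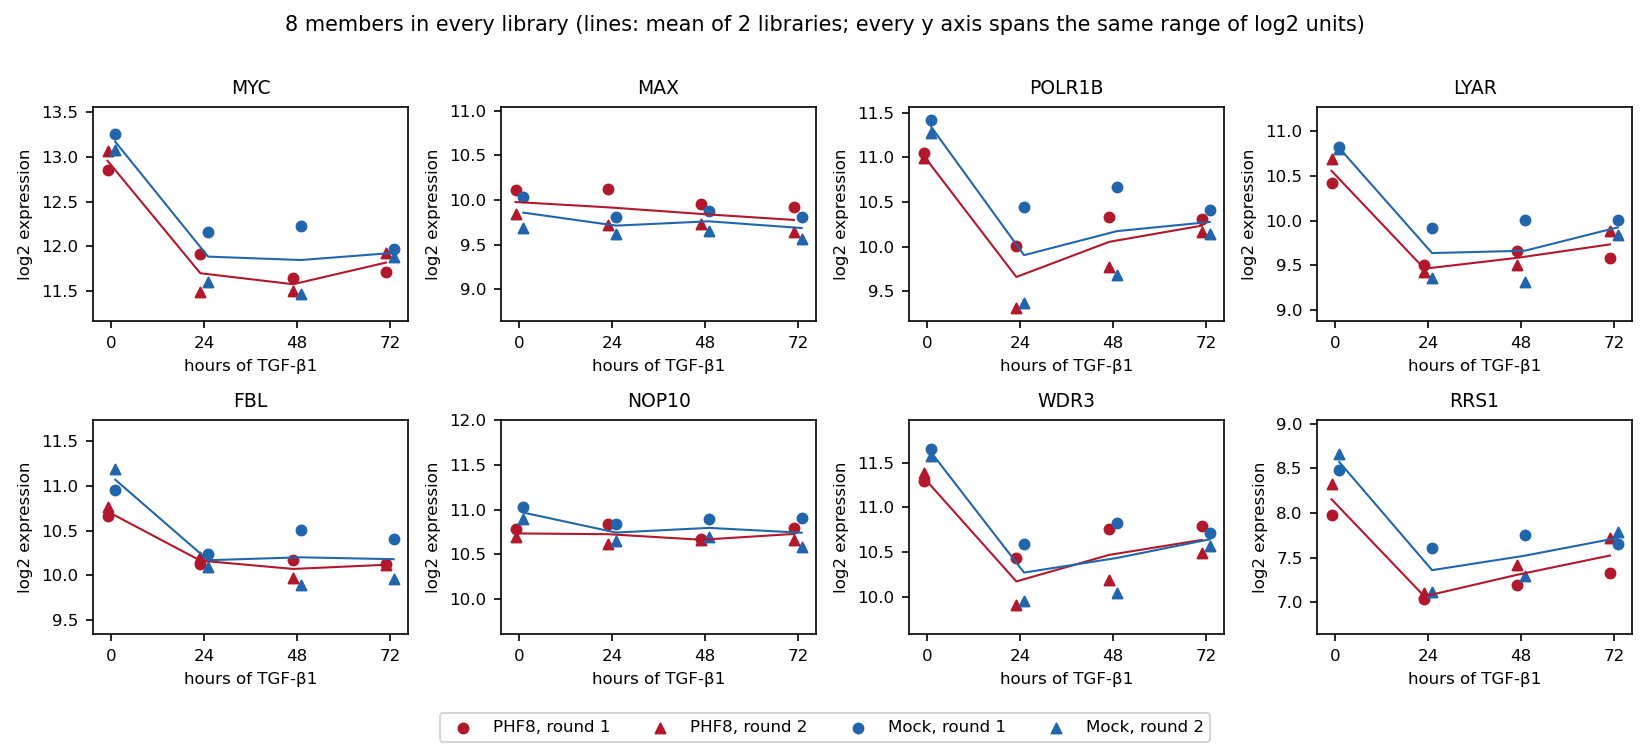
Log2 expression of 8 members against hours of TGF-β1 (0 is untreated), with 1 point per library, red for the PHF8 stock and blue for the Mock stock, circles for round 1 and triangles for round 2; lines join the means of 2 libraries and each axis spans the same range. MYC, LYAR, FBL and RRS1 are lower at all treated times, MAX and NOP10 are nearly level, and in several panels the triangles lie below the circles at 24 and 48 h.

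Small subunit assembly was represented by 10 genes, mostly of the large particle that forms around the nascent transcript. Of these 9 fell at 24 h, 7 at 48 h and 6 at 72 h (16.3%, 15% and 13% of all genes). With the round as a block all 10, all 10 and 8 fell (25%, 23.9% and 21.9% of all genes). WDR3 was the most lowered. WDR3 in the PHF8 stock was 11.29 and 11.38 untreated, 10.43 and 9.91 at 24 h, 10.75 and 10.18 at 48 h, and 10.78 and 10.48 at 72 h. WDR3 in the Mock stock was 11.65 and 11.58 untreated, 10.58 and 9.95 at 24 h, 10.83 and 10.04 at 48 h, and 10.72 and 10.57 at 72 h. The highest treated value was 10.83 and the lowest untreated one 11.29. WDR3 fell by 1.25 ± 0.205 at 24 h, 2.39-fold (limma adjusted p = 0.00104), and by 0.84 ± 0.205 at 72 h (adjusted p = 0.0111). NOP14, HEATR1, WDR75, UTP15 and DDX10 were the other 5 that fell at all 3 times.

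RRP12, whose yeast counterpart serves the export of pre-ribosomal subunits, was the 1 of these 10 that was not called at 24 h. RRP12 in the PHF8 stock was 10.27 and 10.08 untreated, 9.65 and 9.17 at 24 h, 10.06 and 9.64 at 48 h, and 10.20 and 9.88 at 72 h. RRP12 in the Mock stock was 10.63 and 10.25 untreated, 10.20 and 9.26 at 24 h, 10.50 and 9.43 at 48 h, and 10.38 and 9.85 at 72 h. The groups overlapped, and replicate 2 was below replicate 1 in every group, treated and untreated. Its difference at 24 h was -0.74 ± 0.265 (limma adjusted p = 0.0512) and was called with the round as a block (0.000691), or without Mock 24 h replicate 1 (0.0195), Mock 48 h replicate 1 (0.027) or Mock 48 h replicate 2 (0.0269). At 72 h it was -0.23 ± 0.265 (adjusted p = 0.57). PNO1, a late small subunit factor, differed by -0.24 at 72 h.

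Large subunit assembly was represented by 12 genes, of which 10 fell at 24 h, 8 at 48 h and 4 at 72 h (16.3%, 15% and 13% of all genes). With the block 12, 11 and 10 fell, and the shares of all genes also rose, to 25%, 23.9% and 21.9%. RRS1, which helps to bring the 5S particle into the subunit, was the most lowered. RRS1 in the PHF8 stock was 7.98 and 8.32 untreated, 7.03 and 7.10 at 24 h, 7.20 and 7.42 at 48 h, and 7.33 and 7.72 at 72 h. RRS1 in the Mock stock was 8.49 and 8.66 untreated, 7.61 and 7.11 at 24 h, 7.75 and 7.29 at 48 h, and 7.66 and 7.79 at 72 h. Each treated library was below each untreated one. RRS1 fell by 1.15 ± 0.159 at 24 h, 2.22-fold (limma adjusted p = 0.000367), and by 0.74 ± 0.159 at 72 h, 1.67-fold (adjusted p = 0.00545). BRIX1, an assembly factor, the helicase DDX18 and WDR12 were the other 3 that fell at 72 h, by 0.64, 0.39 and 0.58. NOP2, a methyltransferase of ribosomal RNA, and NOP16, NIP7 and EBNA1BP2 fell at 24 h by 0.75, 1.10, 0.63 and 0.64 and were not called at 72 h, with adjusted p of 0.0801, 0.0733, 0.128 and 0.269. With the round as a block NOP2, NOP16 and EBNA1BP2 were called at 72 h (0.0171, 0.00394 and 0.0177) and NIP7 was not (0.0843). WDR12, PES1 and BOP1 act as 1 complex: at 24 h WDR12 and PES1 fell by 0.76 and 0.71, and BOP1 differed by -0.83 with a wide SE of 0.311 (adjusted p = 0.0608, and 7.15e-05 with the round as a block).

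RRP1B, a nucleolar protein of the same pathway, was the large subunit factor with the smallest difference at 72 h. RRP1B in the PHF8 stock was 11.31 and 11.42 untreated, 10.88 and 10.87 at 24 h, 11.09 and 10.99 at 48 h, and 11.01 and 11.17 at 72 h. RRP1B in the Mock stock was 11.69 and 11.42 untreated, 11.31 and 10.95 at 24 h, 11.36 and 10.92 at 48 h, and 11.29 and 11.28 at 72 h. At 24 and 48 h 1 Mock library reached the untreated range. RRP1B fell by 0.46 ± 0.112 at 24 h (limma adjusted p = 0.00948) and differed by -0.27 ± 0.112 at 72 h (adjusted p = 0.0939, and 0.0377 with the round as a block). PPAN, the member with the lowest values, lies within the annotated read-through gene PPAN-P2RY11, so that its values are uncertain; it averaged 5.44 at 24 h, against 5.82 untreated (adjusted p = 0.322, and 0.0208 with the round as a block).

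The second comparison asked whether the members moved back by 72 h, as 72 h against 24 h over both stocks. The difference was positive for 40 of 42 members, with a median of 0.278 (0.162 in round 1 and 0.41 in round 2), and positive in both rounds for 37. No member was called by limma at adjusted p under 0.05, where 0.0295% of all genes were called. At the looser limit of an unadjusted p under 0.05 there were 10 members. The share of all genes at that limit is not given, so the 10 cannot be set beside a background. With the round as a block 1 member was called, NOP58, higher by 0.48 ± 0.0952 at 72 h (adjusted p = 0.0474; without the block the SE was 0.159 and the adjusted p 0.45), where 0.265% of all genes were called higher. The direction of a return was thus common to most members, and without the block no single member passed the threshold.

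Set against untreated, the lowest of the 3 times was 24 h for 37 members. It was 48 h for 4, MYC, NPM1, FBL and NOP10, and 72 h for MAX. For 36 members the difference shrank at each step, 24 to 48 to 72 h. The median member had 64.7% of its 24 h difference left at 72 h. This share was 93.7% for MYC, 102% for FBL and 86.3% for NPM1, and 31.4% for RRP12, 32.3% for PNO1 and 36.9% for TCOF1. A difference of at least 1 log2 unit was reached by 7 members at 24 h and by MYC alone at 72 h. These shares use the same untreated libraries at both times and carry no test.

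**Figure D3:**
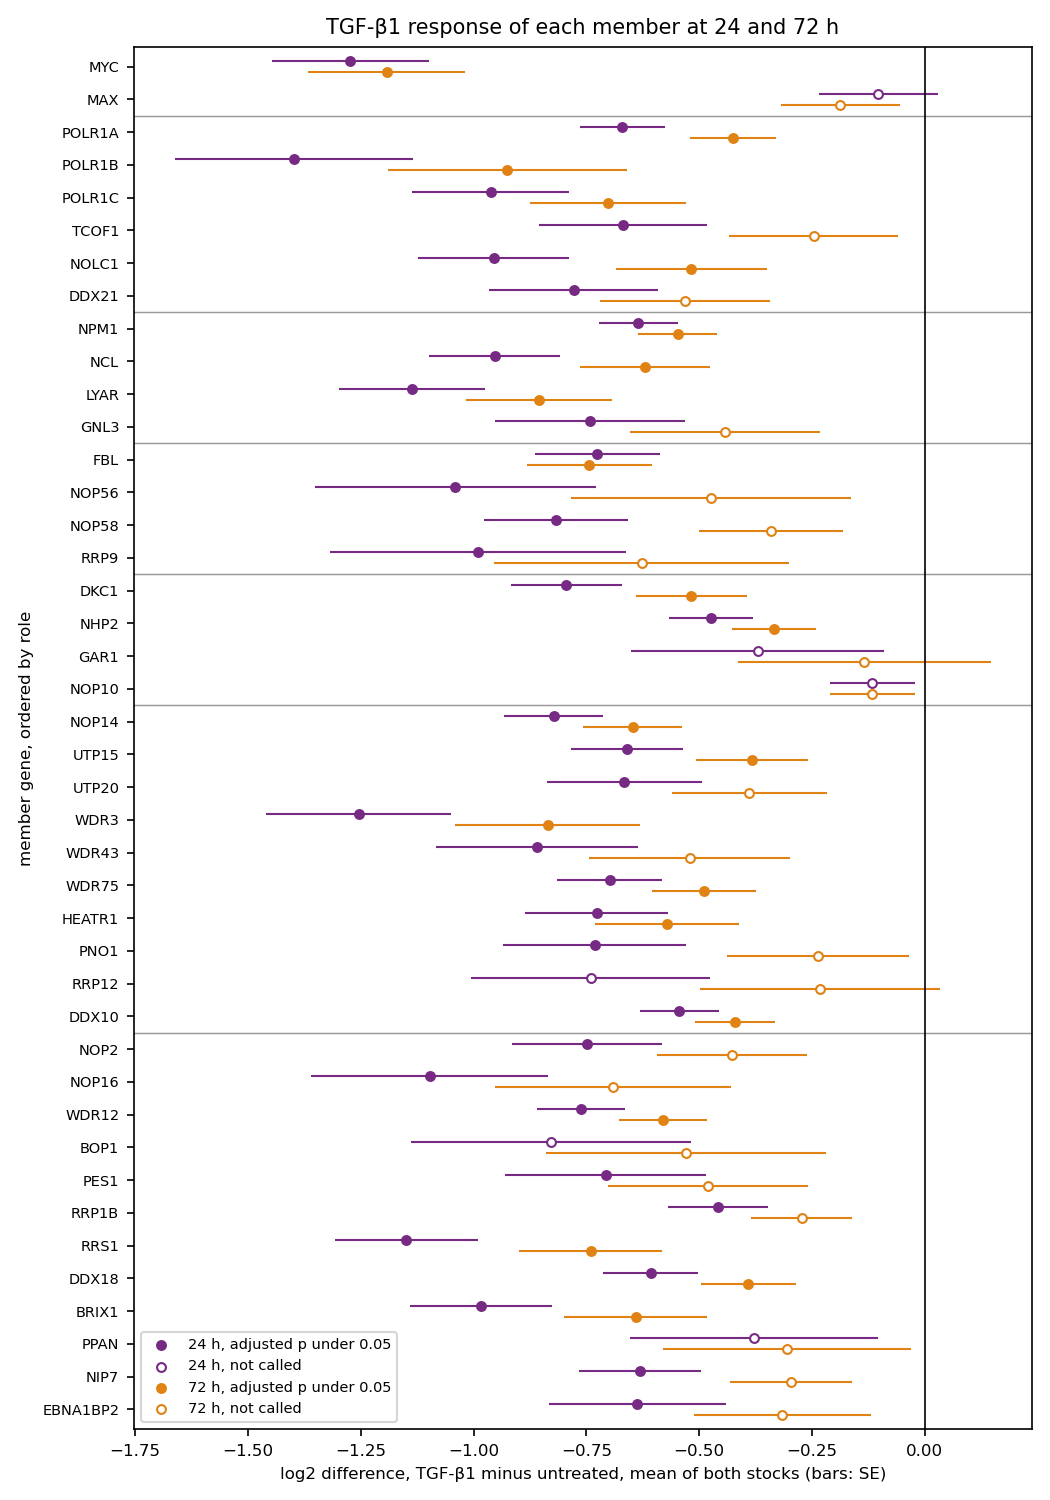
Log2 difference of each member, TGF-β1 minus untreated as the mean of both stocks, at 24 h (purple) and 72 h (orange), with bars of 1 model SE; filled points have a limma adjusted p under 0.05. At 24 h 36 points are filled and at 72 h 21, and the orange points lie nearer to 0 for 40 of the 42 members, MAX and FBL being the exceptions.

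**Figure D4:**
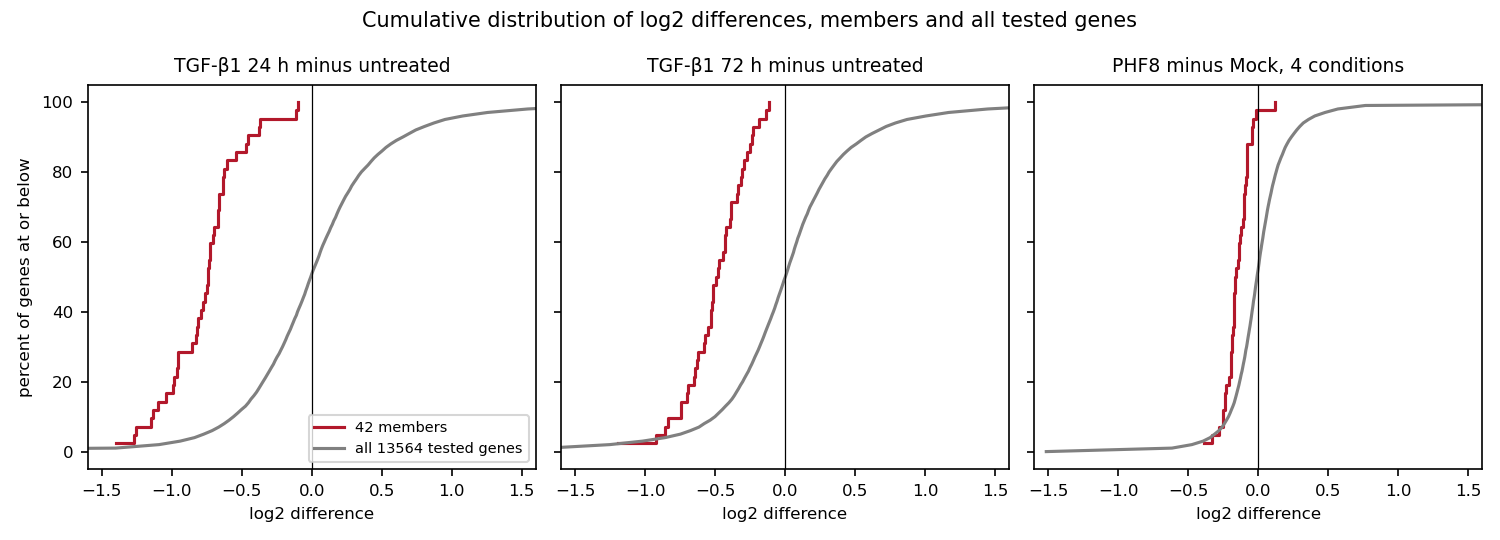
Cumulative distributions of log2 differences for the 42 members (red) and all 13564 tested genes (grey), for TGF-β1 against untreated at 24 h and 72 h and for PHF8 against Mock. The members lie left of 0 at both times, with medians of -0.741 and -0.485. Between stocks the shift is smaller. There 41 of the 42 members lie left of 0, with a median of -0.159 against -0.0076 for all genes.

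The third comparison took each stock alone. In the PHF8 stock 19, 8 and 5 members fell at 24, 48 and 72 h (4.71%, 5.68% and 4.17% of all genes), with medians of -0.722, -0.509 and -0.437. In the Mock stock 23, 19 and 11 fell (7.39%, 7.58% and 6.07% of all genes), with medians of -0.793, -0.631 and -0.538. With the round as a block the counts were 37, 24 and 18 in the PHF8 stock (14.4%, 13.8% and 11.6% of all genes) and 39, 35 and 30 in the Mock stock (17.5%, 16.9% and 15%). At 24 h 39 of 42 members lay below untreated in all 4 pairs of stock and round. Several of these counts rest on single libraries. Without replicate 1 at 24 h, untreated replicate 2 or replicate 2 at 24 h the PHF8 count at 24 h was 7, 0 and 3. Without replicate 1 at 48 h, untreated replicate 2 or replicate 2 at 48 h the PHF8 count at 48 h was 2, 2 and 3. The PHF8 count at 72 h was 0 without PHF8 untreated replicate 2 or either PHF8 replicate at 72 h. It was 3 without PHF8 untreated replicate 1 or either PHF8 replicate at 24 h, and 2 without either PHF8 replicate at 48 h, either Mock untreated replicate or either Mock replicate at 72 h. The Mock count at 24 h was 13, 5 and 3 without untreated replicate 1, untreated replicate 2 and replicate 2 at 24 h. The Mock count at 48 h was 12, 4 and 3 without untreated replicate 1, untreated replicate 2 and replicate 2 at 48 h. The Mock count at 72 h was 5, 1, 2 and 0 without untreated replicates 1 and 2 and without replicates 1 and 2 at 72 h.

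MYC fell in each stock taken alone. it in the PHF8 stock was lower by 1.26, 1.38 and 1.14 log2 units at 24, 48 and 72 h, each ± 0.246 (limma adjusted p = 0.00893, 0.00487 and 0.0154). it in the Mock stock was lower by 1.29, 1.32 and 1.24, each ± 0.246 (adjusted p = 0.00568, 0.00423 and 0.0067). The PHF8 call at 24 h was lost without untreated replicate 2 (0.0847) or replicate 2 at 24 h (0.061), and that at 72 h without replicate 1 at 72 h (0.105), untreated replicate 2 (0.122) or replicate 2 at 72 h (0.0526). The Mock calls at 24 and 72 h were lost without replicate 2 of the treated group (0.0606 and 0.0523).

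Whether the response differed between stocks was tested jointly over the 3 times for every gene. In limma 0 members and 0 genes were called, also with the round as a block; 0 members and 60 genes (0.442%) had an unadjusted p under 0.05. The lowest p among the members was 0.596, for the helicase DDX10. In direction, 33, 38 and 35 of 42 members were less lowered in the PHF8 stock at 24, 48 and 72 h, with median differences of 0.0896, 0.13 and 0.113. The medians over all genes were -0.00472, -0.00759 and -0.00673. The 3 counts are not independent, because they share the untreated libraries. In those, 41 members were lower in the PHF8 stock than in the Mock stock (median -0.247). For MYC the difference of responses was 0.03 at 24 h (95% confidence interval -0.736 to 0.791) and 0.10 at 72 h (-0.658 to 0.868), so that these libraries leave room for differences of either sign.

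The fourth comparison set the PHF8 stock against the Mock stock. Averaged over the 4 conditions, 41 of 42 members were lower in the PHF8 stock, with MAX the exception (0.12). The median was -0.159, where 52% of all genes were lower and their median was -0.0076. No member was called by limma at adjusted p under 0.05, where 1.69% of all genes were called. An unadjusted p under 0.05 was found for 9 members, and the share of all genes at that limit is not given. Round 1 alone gave a median of -0.269 and round 2 gave -0.0112; 25 members were lower in both. The stock difference was thus larger in round 1.

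UTP20, a component of the small subunit particle, had the lowest mean difference and was the 1 member called with the round as a block. UTP20 in the PHF8 stock was 10.79 and 10.73 untreated, 10.15 and 10.16 at 24 h, 10.45 and 10.20 at 48 h, and 10.48 and 10.49 at 72 h. UTP20 in the Mock stock was 11.48 and 11.06 untreated, 10.87 and 10.22 at 24 h, 11.02 and 10.34 at 48 h, and 10.89 and 10.65 at 72 h. Each PHF8 library was below the Mock library of its round and time. UTP20 averaged 10.43 in the PHF8 stock and 10.82 in the Mock stock, a difference of -0.39 ± 0.122 (limma adjusted p = 0.151, and 0.0179 with the round as a block, where 3.66% of all genes were called lower). TCOF1 differed by -0.33 ± 0.132, with -0.66 in round 1 and 0.01 in round 2, and RRS1 by -0.28 ± 0.112 (adjusted p = 0.258 and 0.255).

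In untreated cells alone the median was -0.247 (-0.334 in round 1 and -0.131 in round 2), 41 members were lower in the PHF8 stock, and 37 were lower in both rounds. No member was called by limma at adjusted p under 0.05, where 0.00737% of all genes were called. An unadjusted p under 0.05 was found for 1 member, without a share of all genes at that limit. At 24, 48 and 72 h of TGF-β1 the medians were -0.14, -0.0848 and -0.0958, with 38 members lower each time (51.2%, 50.8% and 51.3% of all genes). Only 17, 5 and 20 members were lower in both rounds, where this held for 27.9%, 28% and 30.3% of all genes. No member was called at these times, where 0.00737%, 0.00737% and 0.0147% of all genes were called at adjusted p under 0.05. At an unadjusted p under 0.05 there were 0 members. In round 2 alone the median was 0.0347 at 24 h and 0.11 at 48 h, on the other side of 0.

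Other genes of the pathway were counted from 7 further lists, over both stocks. Of all genes 16.3% were called lower and 17.1% higher at 24 h, and 13% and 14.3% at 72 h. With the round as a block 25% were called lower at 24 h and 21.9% at 72 h. The 7 lists were also chosen with earlier results of these data known. The counts from all 7 lists are therefore a description and no independent test. Genes named from them were picked by the lowest limma p at 72 h or, where stated, after their value was seen. Of 33 other small subunit factors 23 fell at 24 h and 9 at 72 h (19 with the round as a block), none rose, and their medians were -0.567 and -0.278. Among them NOB1, the nuclease of the last cut, fell by 0.77 at 24 h and by 0.74 ± 0.0942 at 72 h (limma adjusted p = 0.000234), and UTP14A by 0.54 ± 0.118 at 72 h (0.00611). Of 30 other large subunit factors 21 fell and 1 rose at 24 h, and 6 fell at 72 h, 20 with the block (medians -0.489 and -0.304). MDN1, a large ATPase that remodels the pre-ribosome, fell by 0.69 ± 0.119 at 72 h (0.00156) and RSL24D1 by 0.44 ± 0.0624 (0.000492). The 1 that rose at 24 h was SBDS, higher by 0.26 ± 0.09 (adjusted p = 0.0448), which acts late, in the cytoplasm, and was named after its value was seen.

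Of 12 other RNA polymerase I factors 7 fell at 24 h and 3 at 72 h, 8 with the block (medians -0.371 and -0.318), including UBTF, which shapes active ribosomal genes (-0.27 ± 0.0763 at 72 h, limma adjusted p = 0.0226), and TAF1B (-0.30 ± 0.0843, 0.0232). Of 10 other factors that assemble small nucleolar ribonucleoproteins 7 fell at 24 h and 6 at 72 h (medians -0.524 and -0.369), with RUVBL1 at -0.60 ± 0.113 (0.0028) and NAF1 at -0.58 ± 0.122 (0.00512) at 72 h. Of 11 genes of the RNA exosome, which trims ribosomal RNA ends, 7 fell at 24 h and 2 at 72 h. The 2 were EXOSC5, lower by 0.86 ± 0.178 (0.00442), and EXOSC7, lower by 0.59 ± 0.138 (0.00872). Among all genes 16.3% were called lower at 24 h and 13% at 72 h, so 2 of 11 is near the share at 72 h.

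Enzymes and carriers outside the nucleolus that are known MYC targets were the sixth list. Of 17 such genes 12 fell at 24 h and 4 at 72 h, 12 with the block, none rose, and the medians were -0.62 and -0.365. IMPDH2, the rate-limiting enzyme of guanine nucleotide synthesis, fell by 0.61 ± 0.0779 at 72 h (limma adjusted p = 0.000227), and the mitochondrial chaperone HSPD1 by 0.78 ± 0.196 (0.0129). ODC1, the first enzyme of polyamine synthesis, named after its value was seen, fell by 1.30 ± 0.269 at 24 h (0.00397). The 9 other factors of the MYC network were mixed: 2 rose and 2 fell at 24 h, and 1 rose and 1 fell at 72 h, 2 and 2 with the block (medians 0.142 and -0.0427). Among all genes 17.1% were called higher and 16.3% lower at 24 h, and 14.3% and 13% at 72 h. The counts of this list without the block lie near those shares. At 72 h MLXIP, a sensor of glucose metabolites that pairs with MLX, was higher by 0.96 ± 0.101 (7.09e-05), and MXI1, a MAX partner that opposes MYC, was lower by 0.99 ± 0.198 (0.0038).

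Within the members, the responses with and without an E-box lay side by side. The 14 members whose windows held CACGTG had a median difference of -0.737 at 24 h, between -1.14 (LYAR) and -0.12 (NOP10), and the 19 members with windows that lacked it had -0.727, between -1.4 (POLR1B) and -0.10 (MAX). NOP10, with 2 copies in the window printed above, had the second-smallest difference of all members.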

How the data were processed

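Total RNA of 16 MCF10A samples, depleted of ribosomal RNA with a stranded kit, was sequenced as paired-end reads of 50 bases, per the labels' protocols. Per the submitters' processing notes, TopHat2 2.0.13, featureCounts of Subread 1.4.6 and DESeq2 (version not given) were used with hg19. Each library has 1 deposited log2 value per gene. The transformation behind it is not given in the sources used here; the pattern of low values is that of a regularized log, so that differences of weak genes are compressed by an unknown amount. Read counts were not analysed here, so depth is unknown and no counting interval is given. A second sheet, with 4 columns whose names fit none of the samples, was not used.

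The table has 23368 entries; those with a date in place of a symbol (28) were dropped, and 4067 entries hold only 0. No pseudocount was added. A model of 8 group means was fitted by limma 3.58.1 in R 4.3.3 with a mean-variance trend over all 16 libraries (8 residual degrees of freedom, 7 with the block), adjusted by Benjamini-Hochberg over all 13564 tested genes, and checked on simulated data. SE and 95% intervals are those of the model. The replicate number is the sequencing round in the labels, and deviations from group means of libraries of 1 round were correlated between groups (0.206 to 0.749, median 0.461, 28 pairs of groups). A fit that blocks on round is quoted for members whose uncalled value in the text it turns into a call, and for counts it moves more than 1.5 times.

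The members and all lists were chosen with earlier results of these data known. MYC, MAX and, in each role, the members with the largest and the smallest difference at 72 h have their value given in every library, as has any member called between stocks; other lists are named by the 2 lowest p at 72 h. Alternatives were the block, other filters, scalings, no trend, 1 stock, single rounds and leaving out each library. Promoters and motif matches were read from RefSeq windows of GRCh38.p14; no coordinate was carried between builds.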

Additional observations from a re-analysis of the deposited data

Results flagged for a closer look

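PPAN, a large subunit factor, differed in opposite directions in the 2 stocks at 48 h of TGF-β1 in both rounds. Each library was set against the untreated library of its stock and round. Across rounds the libraries overlapped, at 5.86 and 5.47 against 5.72 and 5.38 untreated in the PHF8 stock. In the Mock stock they were 5.88 and 5.33 against 6.42 and 5.75 untreated. The difference of PPAN from untreated was 0.12 in the PHF8 stock (0.14 in round 1 and 0.09 in round 2). In the Mock stock it was -0.48 (-0.55 and -0.42), so that the responses were 0.599 log2 units apart. Neither passed the threshold (limma adjusted p = 0.892 and 0.436), though the Mock difference did with the round as a block (0.0452). The difference at 48 h alone was not tested, and the joint limma test over the 3 times had an adjusted p of 1. PPAN has the lowest values of the members, between 4.93 and 6.42, and lies within the read-through gene PPAN-P2RY11.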

How the results depend on the processing

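The direction of the TGF-β1 difference over both stocks was the same for all 42 members at 24, 48 and 72 h with the deposited values, libraries shifted to 1 median, quantile normalization and libraries scaled to 1 linear sum. The last was added after the data were seen; it shifted the median of all genes by -0.135, -0.121 and -0.1 at 24, 48 and 72 h, to -0.143, -0.117 and -0.0976. The members' medians were then -0.877, -0.713 and -0.585, which is -0.733, -0.596 and -0.488 relative to all genes, as with the deposited values. This scaling moves every gene of a library by the same amount. The values relative to all genes could therefore not change, and their equality is no check. Scaling to 1 linear sum also lowered every difference, so the negative signs under it are no check either. Shifting libraries to 1 median moved all differences by 0.0176, -0.000364 and 0.00571 at 24, 48 and 72 h. The members' smallest differences were -0.103, -0.116 and -0.116, so their signs could not change by that shift. Counts of members called over both stocks at 24 and 48 h stayed within 1.5 times of the reported ones under each setting, and at 72 h under each but the replicate block, which gave 35. The replicate block also gave 37, 24 and 18 in the PHF8 stock and 39, 35 and 30 in the Mock stock at 24, 48 and 72 h, 1 for 72 h against 24 h and 1 for PHF8 against Mock over 4 conditions. Scaling to 1 linear sum gave 14 in the PHF8 stock at 48 h and 17 in the Mock stock at 72 h. In the PHF8 stock at 72 h the count was 2 with no filter on low values and 2 without the mean-variance trend. In the Mock stock at 72 h it was 6 with that stock alone in the fit. The causes were not tested. Leaving out 1 library gave 27 to 38, 21 to 35 and 14 to 23 over both stocks at 24, 48 and 72 h, 0 to 25, 2 to 12 and 0 to 7 in the PHF8 stock, and 3 to 28, 3 to 28 and 0 to 14 in the Mock stock. For 72 h against 24 h, each comparison of PHF8 with Mock and the joint test these fits gave 0 to 0. A fit without 1 library assumes that the lone library of its group varies like the other groups. The median of PHF8 against Mock reversed in round 2 alone, to 0.0347 at 24 h and 0.11 at 48 h. Of the alternative values at 24 and 72 h of MYC, MAX and the 12 members with the largest or smallest difference of their role at 72 h, 619 kept direction and side of the threshold, 12 passed it newly, 13 no longer passed and 0 reversed. With no read counts analysed, counting error could not be given.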
